A study of Mus musculus with 7 samples.

Results

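The potassium channel genes of C2C12 muscle cells were examined after incubation with exosomes, the small vesicles that cells release into their medium. All non-control probes whose gene name begins with Kcn were taken, which gave 95 of the 31829 gene names on the array and 136 of its 39429 probes. A probe was counted as detected when the image-analysis software marked it well above background on at least 3 arrays of one group. By this rule 43 Kcn probes of 36 genes were detected, against 21585 probes on the whole array. The other 93 Kcn probes, which cover 59 genes with no detected probe and further probes of detected genes, were kept as members and are described by how often they rose above background. C2C12 is a line of mouse skeletal muscle cells, in which proliferating myoblasts can be made to fuse to multinucleated myotubes. Recipients were C2C12 cultures that had received, for 24 h, exosomes released by other C2C12 myotubes. In the EXO-Post BSA group (4 arrays) the donor cells had been given BSA, the carrier protein, and in the EXO-Post Palm group (3 arrays) palmitate at 0.5 mmol/l. By the paper's description, donor and recipient cells were of the same line in both groups. No gene was deleted or overexpressed in either group, and the BSA exosomes were the control. The cell line label of the samples counts upward from C2C12, and all samples were treated as C2C12. The labels give the recipient cell type as myoblast while the paper describes myotubes, and the arrays are labelled as biological replicates.

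Potassium channels let potassium leave or enter the cell along its electrochemical gradient and thereby set the membrane potential. Voltage-gated (Kv) channels open on depolarisation and repolarise the muscle fibre, and auxiliary subunits change their gating or their trafficking. Calcium-activated channels couple the membrane potential to intracellular calcium, inward rectifiers (Kir) hold the resting potential, and tandem-pore (K2P) channels carry a background current. In cultured myoblasts, hyperpolarisation by ether-à-go-go and Kir2.1 channels is known to precede fusion into myotubes.

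The Kcn genes on this array are reported through 60-base probes, and the probes on which the results turn are shown here so that it is clear what was measured. They are given 5′ to 3′ as the array annotation prints them, with positions and strand on mm9. In Kcnj13 the capitals mark a stop codon that ends the probe in a frame otherwise free of stops, and in Kcnj2 and Kcnj12 they mark a polyadenylation hexamer (AATAAA or ATTAAA). For Kcna7 the first 30 bases are shown and nothing is marked.
Kcnj2, chr11:110936203-110936262, plus strand, bases 30 to 59 of the probe: ccctaatatgccATTAAAaatcagcttgtt
Kcnj12, chr11:60884556-60884615, plus strand, bases 20 to 49: gttaacgattctAATAAAgtgtctggatgt
Kcnj13 (A_55_P2081050), chr1:89282991-89283050, minus strand, bases 1 to 60: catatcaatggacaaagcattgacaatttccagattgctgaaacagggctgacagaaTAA
Kcnj13 (A_55_P2066878), chr1:89282859-89282918, minus strand, bases 1 to 30: tgtatctcatgtttccttgttctcagtgct
Kcna7 (A_55_P2090142), chr7:52664902-52664961, plus strand, bases 1 to 30: aggtgtgctcaccatctctctgcctgtgcc

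The stop codon of the first Kcnj13 probe and the start of the second lie close together, with 72 bases between the probes. One or both of the hexamers AATAAA and ATTAAA, read on the strand printed, occurred in 8 of the 43 detected Kcn probes (18.6%). The share was 18.8% over all tested probes, the like set. It was 15.1% in the Kcn probes that were not detected (14 of 93) and 16.7% in all 60-base probes. A stop codon of an open frame ended 6 of the 43 detected Kcn probes (14.0%), against 4.74% of all tested probes. It ended 7.53% of the Kcn probes not detected and 6.28% of all 60-base probes. Median GC content was 45% in the detected and 43.3% in the other Kcn probes. The exon or untranslated region in which each probe lies was not analysed here.

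Values are log2 of the background-subtracted signal that the authors deposited, minus the 75th percentile of the array, so that 0 is the 75th percentile of that array. Between 48.5 and 70.3% of all probes were well above background per array. EXO-Post BSA replicate 4 stood apart for the Kcn probes. Its values over the 43 detected probes correlated with those of the other arrays at r = 0.847 to 0.891, whereas the other 6 arrays correlated with each other at 0.910 to 0.979 (across probes, which are not independent). On it 24 of the 136 Kcn probes were well above background, against 31 to 67 on the others. The signal of EXO-Post BSA replicate 3, and its marks of being well above background, came from a newer version of the image-analysis software. Both groups shared 2 of the 4 slides. Slide 1 carried the first EXO-Post Palm replicate beside the first 2 of EXO-Post BSA, and slide 3 carried the third EXO-Post Palm replicate beside the fourth of EXO-Post BSA. All 11 myotube markers on the list (Myog, Myh3, Acta1 and others) were detected and none passed the test. Of the 5 myoblast markers, 4 were detected and Myf5 was well above background on no array. Of the 4 proliferation markers, Mki67, Top2a and Ccnb1 were higher in EXO-Post Palm at an adjusted p under 0.05 and Cdk1 was not (adjusted p = 0.133). Summed over these 4 genes, the linear signal relative to the 75th percentile was 1.61 to 2.50 in EXO-Post BSA and 6.95 to 16.6 in EXO-Post Palm, and the part that this has in any potassium channel value was not tested. Of the neuronal pair, Tubb3 differed by 0.16 and Snap25 by -1.61 (adjusted p = 0.080), and their summed signal was 6.37 to 13.0 in EXO-Post BSA and 3.30 to 5.87 in EXO-Post Palm. Of the 3 smooth muscle markers, Cnn1 (calponin) fell by 1.54 in EXO-Post Palm (adjusted p = 0.0193), Smtn was well above background on all 7 arrays with a difference of -0.02, and the defining Myh11 was so on no array. Their summed signal was 11.0 to 15.2 and 9.73 to 14.0. Of the 3 endothelial markers, Pecam1 and Kdr were well above background on all 7 arrays and Cdh5 on none, with sums of 4.14 to 5.26 and 3.04 to 6.19. Of the 4 macrophage markers, Csf1r was above background on all 7 arrays, Emr1 on 6, and Ptprc and Cd68 on no more than 2, with sums of 1.17 to 1.70 and 1.40 to 2.51. Of the glial and the adipocyte markers, 1 of 3 each was detected. Apart from Cnn1, none of these non-muscle markers passed the test, and the part of any of them in the potassium channel values was not tested. In such bulk samples, fewer cells of a type and less RNA per cell cannot be told apart.

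Genes of every channel class were detected. Of the Kv pore-forming genes, 19 of 62 probes and 16 of 40 genes were detected, and of the Kv auxiliary genes 5 of 17 probes and 4 of 12 genes. The calcium- or sodium-activated channels with their auxiliary subunits had 6 of 18 probes and 4 of 12 genes detected, the inward rectifiers 5 of 20 probes and 4 of 15 genes, and the tandem-pore channels 6 of 15 probes and 6 of 14 genes. The remaining 2 names are not channels. Kcnq1ot1 is a long non-coding RNA transcribed antisense within the Kcnq1 locus and Kcnrg encodes a protein that interferes with the assembly of Kv channels, and each had 1 of 2 probes detected. In total, 31.6% of Kcn probes were detected, against 54.7% of all probes.

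**Figure D1:**
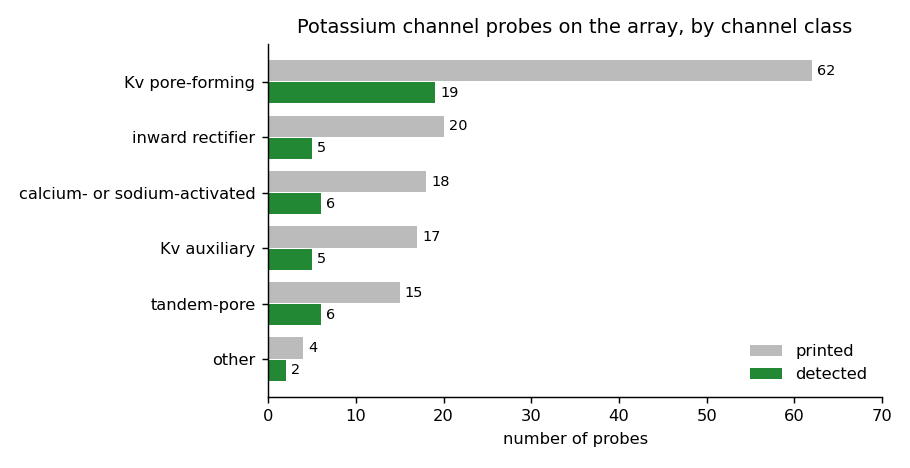
Number of potassium channel probes printed on the array (grey) and detected (green) in each channel class, where detected means well above background on at least 3 arrays of one group. The Kv pore-forming class holds 62 probes, of which 19 were detected, and every class had detected and undetected probes.

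Within classes the detected genes were spread unevenly over the subfamilies. Kcnc1, Kcnc2 and Kcnc4, which encode fast channels of repetitively firing cells, had a detected probe, and so had 5 of the 8 Kv1 genes. None was detected among the silent subunits of the Kv6, Kv8 and Kv9 groups, which form no channel alone, or among the 3 probes of Kcnma1, the pore of the large-conductance calcium-activated (BK) channel. Kcnmb4, an auxiliary subunit of the BK channel, was detected on both of its probes. Several genes with known roles in muscle had no detected probe. Kcnj8 was well above background on no array and Kcnj11 on 1 array, by 1 of its 2 probes. These genes encode the pores of ATP-sensitive (KATP) channels. Kcnh1, the ether-à-go-go channel associated with myoblast fusion, and Kcnq5 were well above background on no array, and Kcnk2, the mechanosensitive TREK-1, on 1. Kcne3, which assembles with Kv3.4 in muscle, reached 2 EXO-Post BSA arrays and 1 EXO-Post Palm array with 1 of its 2 probes. In all, 61 Kcn probes were above background on no array and 18 on all 7, and 36 genes had no probe above background on any array. The threshold fell within a range of dim probes. The 15 probes just inside it, with exactly 3 arrays of one group and fewer than 3 of the other, had mean values of -5.13 to -3.54, and the 8 just outside it, with 2 arrays of a group at most, had mean values of -5.40 to -4.00. Absence of detection here is therefore a limit of this signal, and does not show that a gene was silent.

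The comparison of EXO-Post Palm with EXO-Post BSA asked whether exosomes of palmitate-treated muscle cells changed the expression of these genes in recipient cells. No Kcn probe passed. By limma, 0 of the 43 detected probes had an adjusted p under 0.05 (the background over all tested probes was 0.533%, with 0.463% higher and 0.0695% lower), and the lowest adjusted p was 0.204, for Kcnj2. At an unadjusted p under 0.05 there were 6 of 43 (14.0%, against 10.0% of all tested probes), of which 3 were higher (background 4.86%) and 3 lower (background 5.19%) in EXO-Post Palm. The groups did not overlap in 5 of 43 (11.6%, against 11.0%), with 1 probe higher (background 5.32%) and 4 lower (background 5.67%). These shares lay near the background. The sets were unlike in level, with a median of -3.52 for the detected Kcn probes and -0.48 for all tested probes. The background was not matched for level. The median difference over the detected Kcn probes was 0.05 on the log2 scale and that over all tested probes -0.02. Of the Kcn differences, 25 were above 0 (58.1%) and 18 below, against 47.3% above 0 over all tested probes. With the median of each array in place of its 75th percentile, 48.8% of the Kcn differences were above 0 instead of 58.1%.

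**Figure D2:**
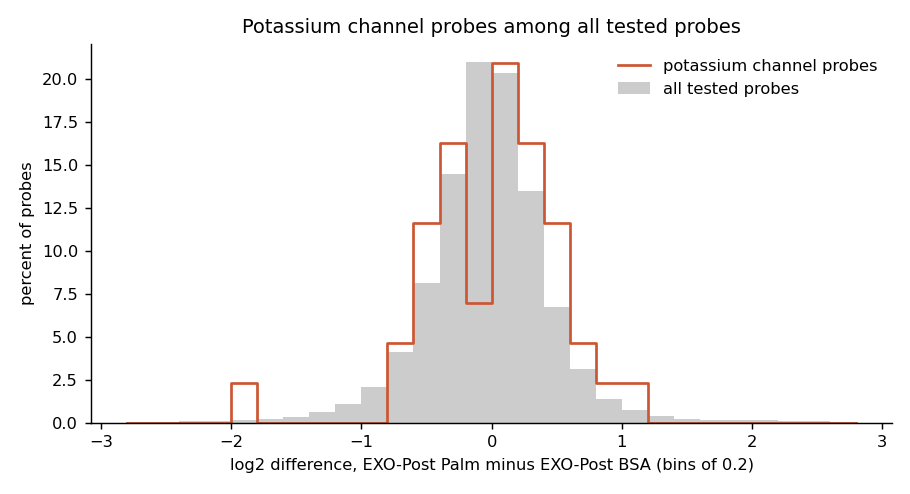
Log2 difference (EXO-Post Palm minus EXO-Post BSA, bins of 0.2) of all 21585 tested probes (grey bars) and of the 43 detected potassium channel probes (red line), each as a percentage of its own set, with the few larger differences of other probes beyond the axis not drawn. The Kcn probes lie over the range of the other probes, with 32 of 43 within 0.5 of 0 and a single probe below -1.

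The size of effect that the arrays could show was limited by their number. The median standard error was 0.302 over the Kcn probes and 0.272 over all tested probes. The 95% interval of the difference lay within 1 log2 unit of 0 for 18 Kcn probes and reached beyond it for 25, so for the latter a doubling or halving of signal was not excluded by the interval. Among the 43 differences, 32 were under 0.5 in size and 2 were of 1 or more.

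**Figure D3:**
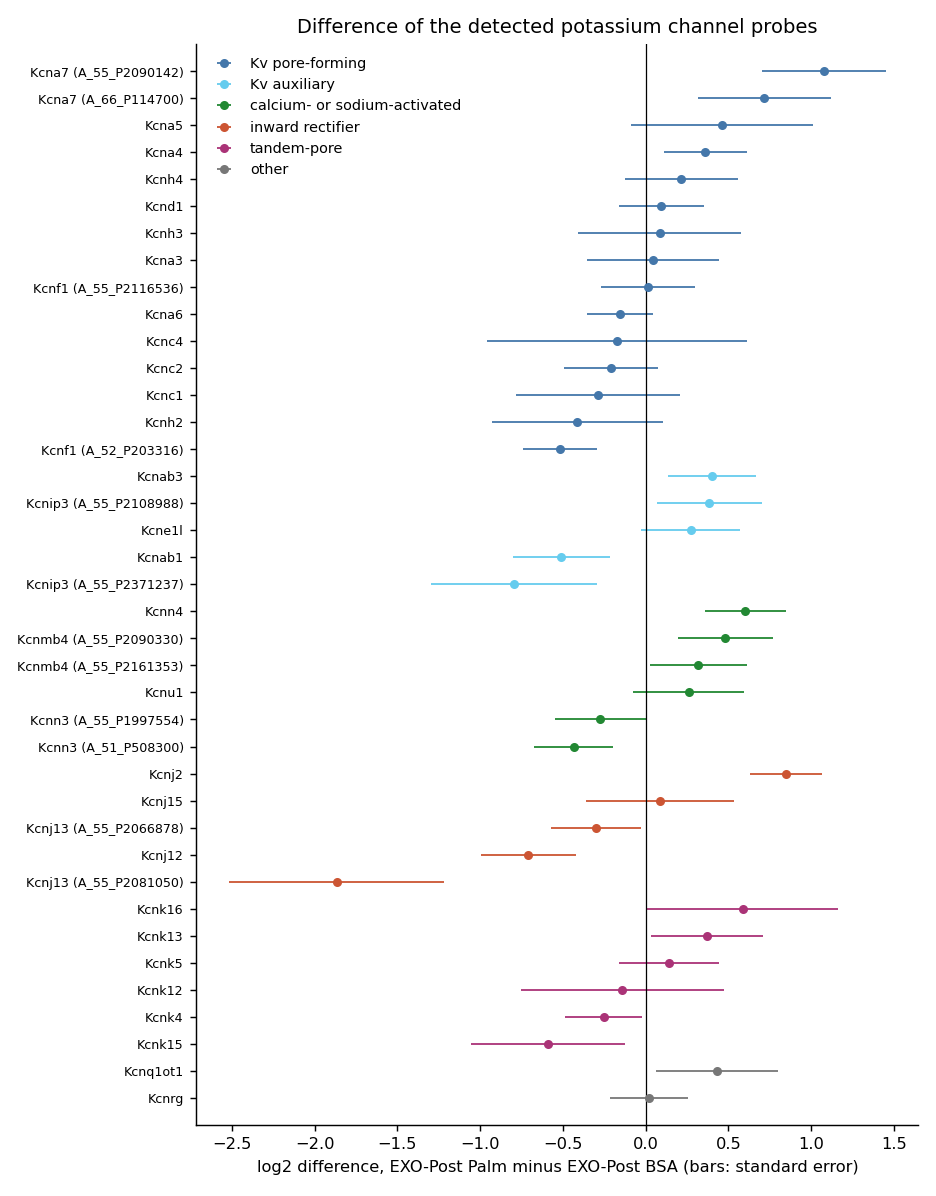
Log2 difference (EXO-Post Palm minus EXO-Post BSA) of 39 of the 43 detected potassium channel probes, grouped and coloured by channel class, with the standard error of the limma fit as bars. The differences run from -1.87 (Kcnj13) to 1.08 (Kcna7), and genes with several probes carry the probe name.

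Of the 5 detected inward rectifier probes, 3 had an unadjusted p under 0.05, beside 10.0% of all tested probes. These 3, of 6 such Kcn probes, differed in direction, and the class is too small for a conclusion. Among them, Kcnj2 and a Kcnj13 probe met the detection rule only through the group where they were higher, so the filter had a part in this share. Only 1 rectifier probe, that of Kcnj12, was well above background on every array. Of the 5 detected rectifier probes, 0 had such a p with normexp background correction and quantile normalisation or with the authors' processed values, and 1 had it by the methods' t-test. Kcnj2 encodes Kir2.1, which holds the resting potential of muscle and whose human mutations cause Andersen-Tawil syndrome. Its probe read -4.40, -4.20, -4.30 and -4.65 in EXO-Post BSA replicates 1 to 4 and -3.63, -3.24 and -3.75 in EXO-Post Palm replicates 1 to 3. All 3 EXO-Post Palm values lay above all 4 EXO-Post BSA values. The difference was 0.85 in log2 units (standard error 0.218, adjusted p = 0.204 by limma, exact permutation p = 0.0286, which is the smallest the design allows), or 1.80-fold. The probe was dim, and its signal cleared the background test in 2 of 4 control arrays and in all 3 EXO-Post Palm arrays. It thus met the detection rule only through EXO-Post Palm, the group where it was higher. Its p-values and its lack of overlap are therefore not independent of the filter. The difference was 0.67 on slide 1 and 0.90 on slide 3. With normexp and quantile normalisation it was 0.29, and with the authors' processed values 0.43.

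Kcnj12, which encodes Kir2.2 of the same subfamily, read 1.56, 1.10, 1.21 and 1.97 in EXO-Post BSA and 0.84, 1.08 and 0.32 in EXO-Post Palm. These groups also did not overlap, although EXO-Post BSA replicate 2 and EXO-Post Palm replicate 2 were nearly equal. The difference was -0.71 (standard error 0.287, limma adjusted p = 0.461, exact permutation p = 0.0571), and the probe was well above background on all 7 arrays. Within slides it was -0.49 on slide 1 and -1.65 on slide 3. With normexp and quantile normalisation it was -0.41, and with the authors' processed values -0.43.

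For Kcnj13, which encodes Kir7.1, a rectifier best known from epithelia such as the retinal pigment epithelium, the probe that ends in the stop codon read -4.52, -4.82, -4.01 and -1.84 in EXO-Post BSA and -5.21, -6.02 and -5.77 in EXO-Post Palm. The value of EXO-Post BSA replicate 4 was far above the other EXO-Post BSA arrays, and all 3 EXO-Post Palm arrays lay below every EXO-Post BSA array. The difference was -1.87 (standard error 0.649, limma adjusted p = 0.377, exact permutation p = 0.0571), and without EXO-Post BSA replicate 4 it was -1.22 (adjusted p = 0.246). The probe was well above background on 3 EXO-Post BSA arrays and 1 EXO-Post Palm array, so that the EXO-Post Palm side rests on signal near background. It met the detection rule only through EXO-Post BSA, the group where it was higher, so its p-values are not independent of the filter. With normexp and quantile normalisation the difference was -0.52. The neighbouring probe, 72 bases away, read -3.82, -3.46, -3.41 and -4.06 in EXO-Post BSA and -3.85, -3.65 and -4.46 in EXO-Post Palm. Its groups overlapped, with a difference of -0.30 (standard error 0.272), and EXO-Post BSA replicate 4 was its lowest EXO-Post BSA value. The single Kcnj15 probe that was detected (Kir4.2) differed by 0.09, with values of -5.22 to -3.32 in EXO-Post BSA and -4.66 to -3.55 in EXO-Post Palm. The median over the 5 rectifier probes was -0.30, and it was -0.47 to -0.21 when each array was left out in turn, -0.12 with normexp and -0.16 with the authors' processed values.

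**Figure D4:**
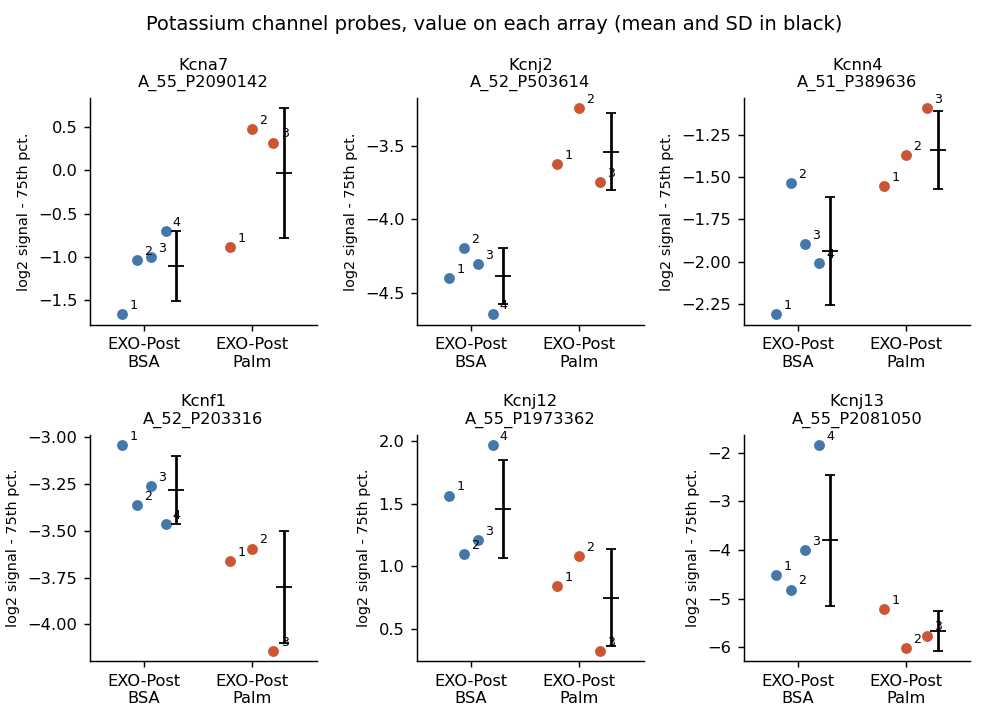
Value on each array (log2 signal minus the 75th percentile of the array) of the 6 potassium channel probes with an unadjusted p under 0.05, EXO-Post BSA in blue and EXO-Post Palm in red, numbered by replicate, with the mean and SD in black. The scale differs between panels, and the groups overlap only for Kcna7 and Kcnn4.

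Among the Kv pore-forming genes, 11 of 19 detected probes were above 0 and 8 below, with a median of 0.04 that lay between -0.14 when EXO-Post Palm replicate 2 was left out and 0.21 when the third was. Kcna7 encodes Kv1.7, a channel of skeletal and cardiac muscle. Its probe A_55_P2090142 read -1.67, -1.04, -1.01 and -0.70 in EXO-Post BSA and -0.89, 0.48 and 0.32 in EXO-Post Palm. EXO-Post Palm replicate 1 fell within the EXO-Post BSA range and the other two lay above it. The difference was 1.08 (standard error 0.374, limma adjusted p = 0.378, exact permutation p = 0.0571), or 2.11-fold. It was 0.46 on slide 1 and 1.03 on slide 3, and leaving out EXO-Post Palm replicate 1 gave 1.51. The second Kcna7 probe read -2.83, -2.60, -2.88 and -4.12 in EXO-Post BSA and -2.39, -1.87 and -2.91 in EXO-Post Palm, with overlapping groups and a difference of 0.72 (standard error 0.402). Both probes of this gene thus lay on the same side, with 1512 bases between them on mm9.

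Of the other Kv1 genes, Kcna4, whose Kv1.4 channel inactivates rapidly, read 1.13 to 2.02 in EXO-Post BSA and 1.74 to 2.07 in EXO-Post Palm. The difference was 0.36 (standard error 0.250), and the groups overlapped. Normexp and quantile normalisation gave 0.65, and a block for slide gave 0.17. Kcna5 (Kv1.5) differed by 0.46 with a standard error of 0.549, and its EXO-Post BSA values ran from -4.63 to -2.27. It was 0.021 without EXO-Post BSA replicate 4, 0.89 without EXO-Post Palm replicate 3 and 0.15 with normexp, so that its size rested on single arrays.

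Kcnf1 encodes Kv5.1, a silent subunit that modifies other Kv channels. Its probe A_52_P203316, on chromosome 12, read -3.04, -3.36, -3.26 and -3.47 in EXO-Post BSA and -3.66, -3.60 and -4.14 in EXO-Post Palm. The groups did not overlap, and the difference was -0.52 (standard error 0.223, limma adjusted p = 0.488, exact permutation p = 0.0286). The other Kcnf1 probe, which is separated from it by 1920 bases and ends in a stop codon, differed by 0.01 (standard error 0.282), with values of -4.24 to -3.17 and -3.85 to -3.48. The 2 probes of this gene therefore gave different readings.

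For Kcnc1, Kcnc4 and the ERG channel the difference rested on single arrays. Kcnc1 (Kv3.1) read -3.49, -3.50, -3.33 and -5.48 in EXO-Post BSA and -4.04, -4.27 and -4.41 in EXO-Post Palm. With EXO-Post BSA replicate 4 the Kcnc1 difference was -0.29, and without it -0.80 (adjusted p = 0.288). The Kcnc1 probe was well above background on 3 EXO-Post BSA arrays and 1 EXO-Post Palm array, and that of Kcnc4 on 3 and 2. The EXO-Post Palm side of Kcnc1 thus rests on signal near background. Kcnc4 (Kv3.4) read -2.83, -3.30, -4.12 and -6.29 in EXO-Post BSA and -3.48, -4.16 and -5.29 in EXO-Post Palm, a difference of -0.17 (standard error 0.785) that became -0.89 without EXO-Post BSA replicate 4 and 0.32 without EXO-Post Palm replicate 3. Kcnh2, the ERG channel that repolarises the heart, was above background on 3 EXO-Post BSA arrays and 1 EXO-Post Palm array, with a difference of -0.41 (standard error 0.518) that became 0.09 without EXO-Post Palm replicate 2.

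Auxiliary subunits of Kv channels were detected on 5 probes, of which 3 differences were above 0, with a median of 0.27. This median was 0.049 without EXO-Post BSA replicate 4 and 0.17 without EXO-Post Palm replicate 2, and it turned to -0.045 with normexp and -0.017 with the authors' processed values (2 of 5 above 0 in both). Kcnab1, a cytoplasmic Kv beta subunit, read -3.08, -2.79, -3.86 and -2.98 in EXO-Post BSA and -3.90, -3.40 and -3.75 in EXO-Post Palm. The groups overlapped through EXO-Post BSA replicate 3, and the difference was -0.51 (standard error 0.291). Kcnab3, another beta subunit, differed by 0.40 (standard error 0.264), and Kcne1l, a membrane-spanning subunit related to MinK, by 0.27 (standard error 0.299). Kcnip3, a calcium-binding protein that associates with Kv4 channels, had probes that pointed in opposite directions, at 0.38 (standard error 0.317) and -0.80 (standard error 0.502).

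Calcium-activated channels were represented by Kcnn3, Kcnn4, Kcnmb4 and their pH-sensitive relative Kcnu1. Kcnn4 encodes the intermediate-conductance channel KCa3.1, which is known from proliferating cells. It read -2.31, -1.54, -1.90 and -2.01 in EXO-Post BSA and -1.55, -1.37 and -1.09 in EXO-Post Palm. EXO-Post BSA replicate 2 and EXO-Post Palm replicate 1 were nearly equal and made the groups overlap. The difference was 0.60 (standard error 0.243, limma adjusted p = 0.461, exact permutation p = 0.0857), with 0.37 on slide 1 and 0.92 on slide 3. Kcnmb4 read -1.46, -1.38, -0.60 and -1.58 in EXO-Post BSA and -0.69, -1.10 and -0.54 in EXO-Post Palm on one probe, a difference of 0.48 (standard error 0.286), and its second probe differed by 0.32. Both probes were on the same side, as were those of Kcnn3, the small-conductance channel SK3 known from denervated muscle, at -0.27 (standard error 0.276) and -0.43 (standard error 0.238). The median of the 6 probes of this class was 0.29, and 0.16 to 0.37 when each array was left out in turn, the lowest without EXO-Post Palm replicate 1. It was 0.093 with normexp and 0.16 with the authors' processed values (3 of 6 above 0 in both), and -0.18 over all 18 probes of the class with no filter on dim probes.

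Tandem-pore channels gave 3 differences above 0 and 3 below, with a median of 0.00 that ranged from -0.12 to 0.33 when each array was left out in turn. Kcnk13 (THIK-1) read -1.29, -1.07, -1.34 and -0.41 in EXO-Post BSA and -1.35, -0.28 and -0.35 in EXO-Post Palm. The spread between arrays exceeded the difference of 0.37 (standard error 0.340), which was -0.06 with slide as a block. Kcnk4, the mechanosensitive TRAAK, differed by -0.25 (standard error 0.233). The other 4 detected genes ranged from -0.59 (Kcnk15) to 0.59 (Kcnk16). Of the names that are not channels, Kcnq1ot1 differed by 0.43 (standard error 0.368) and Kcnrg by 0.02 (standard error 0.236).

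More than 1 probe was detected for 7 genes, and for 4 of them (Kcna7, Kcnmb4, Kcnn3 and Kcnj13) the probes lay on the same side of 0, while for 3, Kcnip3 and Kcnf1 among them, they did not. On slide 1, 18 of the 43 Kcn differences were above 0 and on slide 3, 27 were, and 24 had the same sign on both slides. The median Kcn difference was -0.02 on slide 1 and 0.13 on slide 3, against -0.04 and 0.05 over all tested probes. Leaving out each array in turn gave 0 Kcn probes at an adjusted p under 0.05 every time, with 2 to 7 of 43 at an unadjusted p under 0.05. Over all tested probes the same fits gave 0 to 202 probes at an adjusted p under 0.05 (0.936% at most). At an unadjusted p under 0.05 they gave 1459 to 2531 of about 21585. Few or no Kcn calls would thus be found at the background rate alone.

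**Figure D5:**
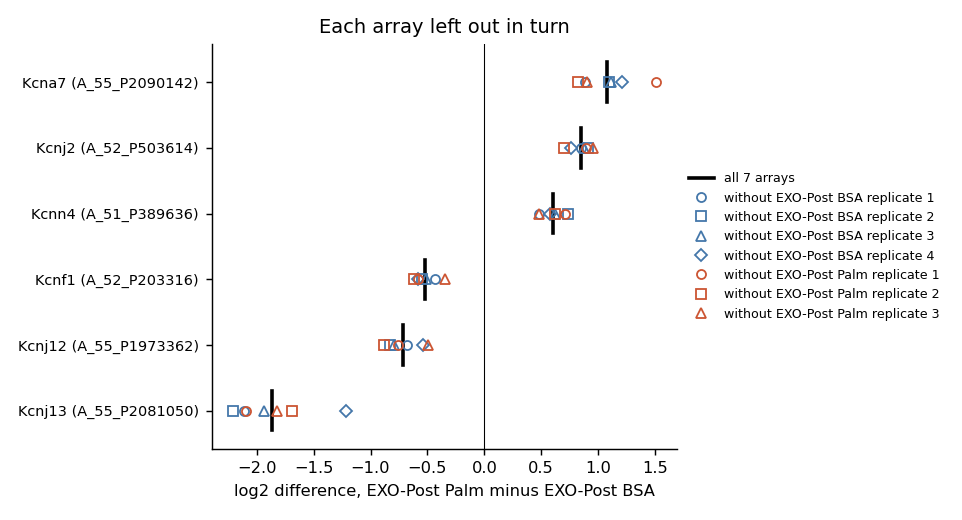
Log2 difference (EXO-Post Palm minus EXO-Post BSA) of the same 6 probes with all 7 arrays (black bar) and with 1 array at a time left out (blue symbols for EXO-Post BSA, red for EXO-Post Palm). No difference changes sign, and that of the Kcnj13 probe ranges from -2.21 to -1.22.

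Genes that act together with potassium channels were taken as a list of 38, represented by 50 probes, of which 35 probes of 26 genes were detected. None passed (0 of 35 by limma at an adjusted p under 0.05, against 0.533% of all tested probes). At an unadjusted p under 0.05 there were 2 of 35, against 10.0% of all tested probes. Of the differences, 14 were above 0 and 21 below, with a median of -0.18. Over all tested probes 47.3% were above 0, with a median of -0.02. The sulfonylurea receptors, which form KATP channels with the Kcnj8 and Kcnj11 products, were detected although neither pore gene was. Abcc9 read -3.51, -3.59, -3.08 and -3.83 in EXO-Post BSA and -4.30, -3.44 and -5.85 in EXO-Post Palm. Its difference of -1.03 had a standard error of 0.502 and was -0.37 without EXO-Post Palm replicate 3. Leaving out EXO-Post Palm replicate 2 instead gave -1.57. Abcc8 differed by -0.08 (standard error 0.307) and -0.57 (standard error 0.350) on its 2 probes.

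Of the membrane channels of muscle on this list, Cacna1s, the pore and voltage sensor of the L-type calcium channel, read 4.89 to 5.37 in EXO-Post BSA and 4.64 to 5.15 in EXO-Post Palm. The difference was -0.39 (standard error 0.228), and on its other probe -0.19 (standard error 0.241). The T-type calcium channel gene Cacna1g had a difference of -1.52 (standard error 0.464, limma adjusted p = 0.301) on a probe above background on all 4 EXO-Post BSA arrays and 1 EXO-Post Palm array. That probe met the detection rule only through EXO-Post BSA, the group where it was higher. The other Cacna1g probe, above background on all 7 arrays, differed by -0.32 (standard error 0.214). Cacna1h differed by 0.03 (standard error 0.619) on its brighter probe and by -0.22 (standard error 0.427) on the other. Scn4a, the muscle sodium channel, differed by 0.28 (standard error 0.243), and the chloride channel gene Clcn1 was not detected.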

How the data were processed

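RNA from 7 cultures was labelled with Cy3 and hybridised to 1-colour Agilent mouse arrays. The authors deposited the scanner output of each array, with the processed intensity (background-subtracted, with no scaling across arrays), and log2 values that have the same distribution on every array, whose further settings are not given in the sources used here. The submitters' notes name Agilent Feature Extraction 9.1 and limma, and the file headers give 10.7.3.1 or, for EXO-Post BSA replicate 3, 11.5.1.1. Gene names missing from that file were joined by probe.

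Log2 intensity minus the 75th percentile of 43020 non-control spots was fitted on condition with limma 3.58.1 (R 4.3.3, the data.table package in version 1.17.8, jsonlite 2.0.0) over all 21585 tested probes, with Benjamini-Hochberg adjustment and a threshold of 0.05, 2-sided. Spots marked as outliers were left out and none was saturated. Repeated spots were averaged. Exact permutation tests used the 35 ways to part 7 arrays (2-sided, smallest p 0.0286). The fit was checked on simulated data. All 95 Kcn names are current symbols in the reference table.

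The members, channel classes, partner genes and markers were chosen with earlier results of these data known. Named were Kcn genes at an adjusted or unadjusted p under 0.05 or with no overlap of the groups, the 2 detected genes with the highest mean value in each class, and genes with known roles in muscle, each by its brightest tested probe. Kcnab3, Kcnip3, Kcnj15, Kcnk15, Kcnk16 and Kcnc2 fall outside this rule and were chosen after their values were seen, as were second probes. Some genes that the rule covers are not reported here. There were 23 alternatives, covering background correction, normalisation, values, probe filter, outlier flags, slide, replicate number, array weights, variance model, test and left-out arrays. For the normexp alternative the median signal replaced the planned mean signal, which the file of EXO-Post BSA replicate 3 does not hold. Precision is limited by the number of arrays.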

Additional observations from a re-analysis of the deposited data

Results flagged for a closer look

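Among the 26 named probes, the 4 EXO-Post BSA values of 2 held an array far from the other 3. The cut-off used flags about 1 in 20 unselected, independent groups. That rate does not carry over to these 26, which were partly chosen from the same values and share the same arrays. Both times the array was EXO-Post BSA replicate 4. The Kcnc1 probe read -5.48 there against -3.50 to -3.33 on the other EXO-Post BSA arrays. The brighter Cacna1h probe read -5.61 against -3.35 to -3.00. Each of these 2 probes was dim and well above background on only 3 of the 4 EXO-Post BSA arrays. EXO-Post BSA replicate 4 had the fewest Kcn probes well above background (24 of 136), and the part of this in both values was not tested. Without it the differences were -0.80 for Kcnc1 and -0.58 for Cacna1h, against -0.29 and 0.03 with it.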

How the results depend on the processing

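In 22 of the 23 alternatives, as by limma in the main setting, 0 Kcn probes and 0 partner genes had an adjusted p under 0.05. The methods' t-test without adjustment called 4 of 43 Kcn probes (Kcnf1, Kcnj2 and Kcnn4 among them, of 4 genes in 3 classes). It also called 4 partner genes, for which 35 probes were tested. Over the whole array it called 2108 of 21585 tested probes (9.77%), so the Kcn count lay near the background. The median Kcn difference moved from 0.05 by less than the spread between arrays (SD 0.181) in each alternative, to between -0.09 when EXO-Post Palm replicate 2 was left out and 0.21 when the third was. Signs turned for named probes with differences near 0 or large errors. Kcnrg was -0.10 with normexp and quantile normalisation, -0.0396 with quantile normalisation, -0.0403 with the array median, -0.0516 with the authors' values, -0.12 with slide as a block, -0.0043 with slide as a random effect, -0.0476 with the replicate block and -0.0736 with array weights. Kcnc4 was 0.0052 with quantile normalisation. Cacna1h was -0.0363 with quantile normalisation, -0.0314 with the array median, -0.58 with the replicate block and -0.20 with array weights. With slide as a block, Kcnk13 was -0.0647, Kcnc1 0.15, Kcnc4 0.20 and Kcnh2 0.38. With arrays left out, Kcnrg ranged from -0.17 to 0.12, Kcnc4 from -0.89 to 0.32, Abcc8 from -0.32 to 0.14, Cacna1h from -0.58 to 0.38 and Kcnh2 from -0.73 to 0.087. In each case the cause was not tested.

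Calls over all probes, 115 in the main setting (100 higher), were 0 with no filter (1877 at an unadjusted p under 0.05), 40 with a filter of 1 array, 173 with a trended and robust fit, 181 with slide as a random effect, 0 with the replicate block (1933 unadjusted), 0 with the adjusted t-test (2108 unadjusted), and from 0 without EXO-Post BSA replicate 1 (1583 unadjusted) to 202 without EXO-Post Palm replicate 2. With normexp 100 of 131 were higher. Same-numbered arrays correlated in their deviations at 0.122, -0.150 and -0.148, so the numbers were not taken to pair them, and with the block 5 Kcn probes had an unadjusted p under 0.05. Signal near background limits the 25 of 43 Kcn probes not above it on every array.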

Other observations

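A single array decided the value of 1 partner gene outside the naming rule, seen after the values were known. Fxyd1, a regulator of the sodium-potassium pump, read -6.34 on EXO-Post Palm replicate 3 against 1.68 to 2.77 on the 5 other arrays with a value. Of the 3 Kcn probes printed 10 times, those of Kcnn2, Kcnip1 and Kcnj6, the spots of 1 array differed with an SD of 0.15 to 0.96 on the log2 scale, and they were well above background on 0, 1 and 1 arrays.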
